A study of Homo sapiens with 12 samples.

Results

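MOLM-13 is a human acute myeloid leukemia (AML) cell line of monocytic type that carries an MLL-AF9 fusion. The comparison described here set 3 RNA-seq libraries of MOLM-13 cells given both all-trans retinoic acid (ATRA) and the hypomethylating drug decitabine (DAC) against 3 libraries of untreated cells, 6 of the 12 libraries of the series. The genes were taken from the whole table, and of 46639 gene symbols 10641 protein-coding genes reached 10 normalised counts in at least 3 libraries and were tested. The DAC+ATRA cells received 100 nM DAC freshly on each of 3 days and 1 µM ATRA, the DAC cells received DAC alone, the ATRA cells ATRA alone, and no library of cells given a solvent was among the 12. Per the study's methods, ATRA was added only on day 3, together with the last DAC dose. All groups shared the medium, which per the labels held 20% fetal calf serum and 5 ng/ml GM-CSF, while the study's methods describe another serum share and no GM-CSF. The labels give 72 h for the treated groups and 96 h for the untreated one, whereas the design text and the study's methods name harvest at 72 h without setting the untreated cells apart. If the labels hold, culture time and the drug effect cannot be told apart. The replicates are technical triplicates of 1 cell line, so the p-values measure the spread between these libraries and not between independent cultures or patients.

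Decitabine is a cytidine analogue that is built into DNA during replication, traps DNA methyltransferases and so lowers DNA methylation as cells divide. Retinoic acid binds the retinoic acid receptors RARA, RARB and RARG, which sit on DNA with a retinoid X receptor and switch from repressing to activating their target genes when the ligand binds. In myeloid cells retinoic acid is known for granulocytic and monocytic differentiation, and it is curative together with other drugs in acute promyelocytic leukemia. The question of the comparison was what the pair of drugs did to the transcriptome, with attention to genes that neither drug moved alone.

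The untreated libraries held 8.95 to 11.9 M reads over all gene symbols and the DAC+ATRA libraries 5.61 to 7.16 M reads, so depth did not overlap between the groups. The first 2 principal components of all 12 libraries held 54.9% and 18.3% of the variance. The median replicate SD over genes was 0.171 on the log2 scale in DAC+ATRA and 0.172 in untreated cells, against 0.208 in ATRA and 0.280 in DAC cells. Of the 13 myelomonocytic markers 9 were over 10 normalised counts in all 6 libraries, and CD34 was at 0. CD14, PTPRC and ITGAM also missed this limit. CD14 had means of 10.6 in untreated and 2.6 in DAC+ATRA cells, a difference that was not called. PTPRC had 6.90 to 48.2 and 5.11 to 18.2, while ITGAM was higher with DAC+ATRA. Whether PTPRC reads were lost in the counting was not tested. Of markers of other cell types, all 3 of epithelium (EPCAM, CDH1, KRT5), 2 of 4 of T cells (CD2, CD8A), 2 of 4 of B cells (MS4A1, PAX5), 2 of 3 of NK cells (KLRD1, KLRF1), 2 of 3 of erythroid cells (ALAS2 among them), 2 of 3 of fibroblasts (COL1A2, DCN) and 1 of 3 of megakaryocytes (PF4) were at 0 in these 6 libraries. The others were not. CD3D, a chain of the T-cell receptor complex, had 11.9 to 28.0 normalised counts in the 6 libraries, and the natural killer marker NCAM1 1.02 to 9.74. The summed level of the B-cell list was 2.51 to 5.68 in untreated and 26.6 to 39.8 in DAC+ATRA cells, most of it CD79A, and that of the fibroblast list, all of it the collagen gene COL1A1, was 4.87 to 10.7 and 39.2 to 58.2. The summed erythroid list, all of it the erythropoietin receptor EPOR, was 88.5 to 98.0 and 34.9 to 54.1, and that of the megakaryocyte list, made up of ITGA2B and GP9, 35.8 to 45.9 and 3.06 to 9.80. The part of other cell types in the results was not tested.

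DAC+ATRA changed 3077 of the 10641 tested genes, 28.9%, at an adjusted p under 0.01 (limma on the log2 of the normalised count plus 1, Benjamini-Hochberg). Of these, 1540 (14.5%) were higher and 1537 (14.4%) lower than in untreated cells. The rise exceeded 2-fold for 820 genes and 8-fold for 175, and the fall exceeded 2-fold for 727 and 8-fold for 94. The median log2 fold change over all tested genes was -0.004. By the same test and threshold 848 genes (7.97%) were called with DAC and 2772 (26.1%) with ATRA. These comparisons share the untreated libraries. At the edge of the threshold CCT6A had an adjusted p of 0.009996 just inside it and CCN2 one of 0.0101 just outside.

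**Figure D1:**
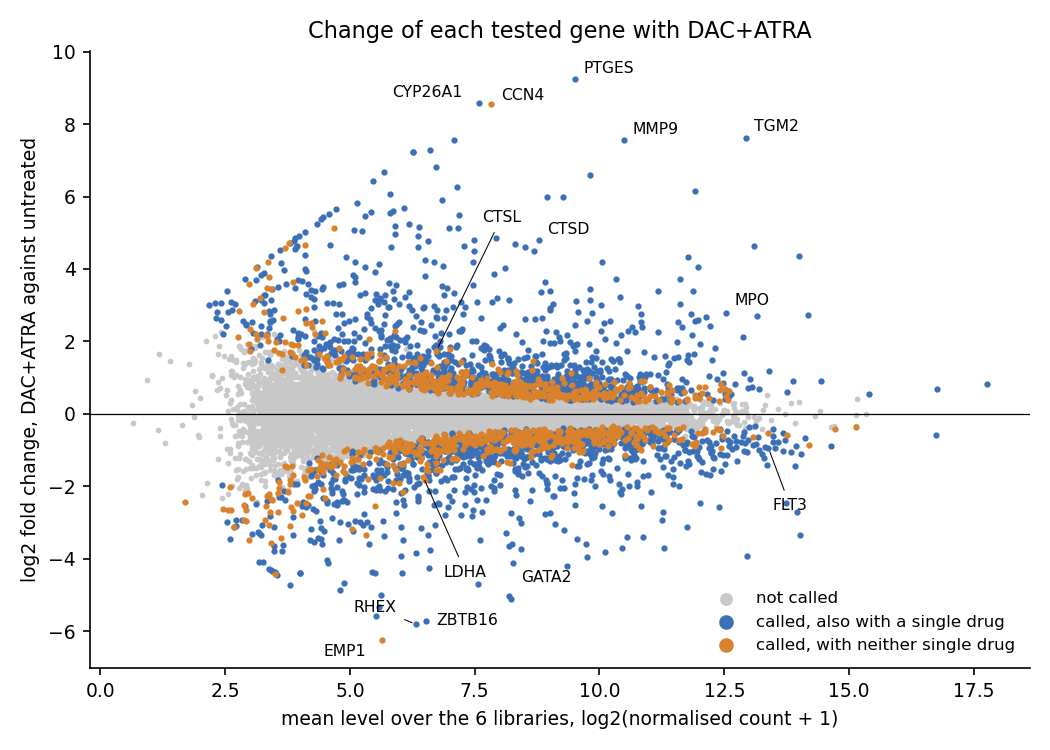
Each point is 1 of the tested genes, with the mean level over the 3 untreated and 3 DAC+ATRA libraries on the x axis (log2 of the normalised count plus 1) and the log2 fold change of DAC+ATRA against untreated on the y axis. Blue and orange points are the 3077 called genes, and the orange ones, called with neither single drug, lie mostly close to the grey band of genes that were not called, with CCN4, EMP1 and a number of low-level genes farther off.

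The largest changes are given for genes with a mean of 50 or more normalised counts over the 6 libraries and no overlap between the groups, which the choice fixed. PTGES, the inducible prostaglandin E synthase (hg38 chr9:129738331-129753042, minus strand), had 0.778, 2.44 and 1.25 normalised counts in the untreated libraries and 1355, 1420 and 1612 with DAC+ATRA, a log2 fold change of 9.25 ± 0.27 (SE, adjusted p = 3.66e-15). Its group mean was 5.34 with DAC and 400 with ATRA, so that the pair stood above each single drug, by 1.87 on the log2 scale against ATRA (adjusted p = 5.9e-05). TGM2, tissue transglutaminase, went from 84.0, 77.9 and 70.9 to 15475, 15789 and 15285 (log2 fold change 7.63 ± 0.11, adjusted p = 9.56e-20), next to a mean of 14356 with ATRA. MMP9, the matrix metalloprotease gelatinase B, went from 16.3, 15.4 and 11.3 to 2371, 2970 and 3257 (7.55 ± 0.17, adjusted p = 1.26e-16), and its means of 379 with DAC and 604 with ATRA were both below the pair. An antisense gene covers 18.4% of the MMP9 exon bases and was listed at 8.59 in untreated and 21.4 in DAC+ATRA cells.

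Other large rises started from no or almost no reads, and the size of their fitted change depends on the 1 count added before the logarithm. CYP26A1, the enzyme that degrades retinoic acid, had 0 reads in each untreated library and 386, 375 and 390 normalised counts with DAC+ATRA, at least 173-fold higher when each untreated library is given 3 reads. Its ATRA mean of 1331 was higher than the mean of the pair, by 1.73 on the log2 scale (adjusted p = 0.00028). CHST15, a chondroitin sulfate sulfotransferase, had 0 reads in untreated cells and 134 to 172 normalised counts (at least 68.0-fold), and PALLD, the actin-bundling protein palladin, 0 and 109 to 185 (at least 68.6-fold). ADH1C, an alcohol dehydrogenase that also oxidises retinol, had 0 to 0.812 and 159 to 225, EXOC3L2 0 to 1.88 and 239 to 295, and the lectin CLEC17A 0 to 2.51 and 185 to 220. The matricellular protein CCN4 belongs to the same group and is described with the genes that neither drug moved.

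The largest falls, chosen in the same way, included ZBTB16, GATA2 and RHEX. ZBTB16, the progenitor repressor PLZF, fell from 173, 181 and 178 normalised counts to 0, 4.50 and 6.13 (-5.72 ± 0.54, adjusted p = 7.47e-08). GATA2, a transcription factor of hematopoietic stem and progenitor cells, fell from 462, 594 and 682 to 30.8, 31.5 and 33.7 (-4.12 ± 0.30, adjusted p = 2.46e-09). RHEX, a partner of the erythropoietin receptor, fell from 124 to 173 down to 1.02 to 3.38. For ZBTB16, GATA2 and RHEX the DAC means (186, 452 and 157) were close to the untreated level and the ATRA means (0.845, 17.8 and 0) were near or below those of the pair.

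A second set of falls had each single drug in between. OSM, the cytokine oncostatin M, fell from 580, 582 and 534 to 32.2, 6.75 and 19.4 (-5.03 ± 0.39, adjusted p = 4.52e-09), with means of 125 under DAC and 82.7 under ATRA. INHBA, the activin A subunit, fell from 1357, 1265 and 1096 to 64.4, 65.3 and 69.4 (-4.20 ± 0.26), with 292 under DAC and 182 under ATRA. RGS1, a brake on G-protein signalling, fell from 290 to 417 down to 9.01 to 16.8, with 58.6 and 102. In OSM, INHBA and RGS1 the pair was called below DAC and below ATRA as well. The remaining members of the 10 largest falls were TMEM45A (551 to 606 against 9.80 to 20.3), TBC1D30 (108 to 137 against 2.80 to 9.19), the complement receptor C5AR2 (164 to 206 against 4.50 to 13.3) and the ATP-gated channel P2RX7 (1492 to 1724 against 91.9 to 115). Another annotated gene covers 33.0% of the P2RX7, 36.6% of the TBC1D30 and 25.3% of the CYP26A1 exon bases.

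**Figure D2:**
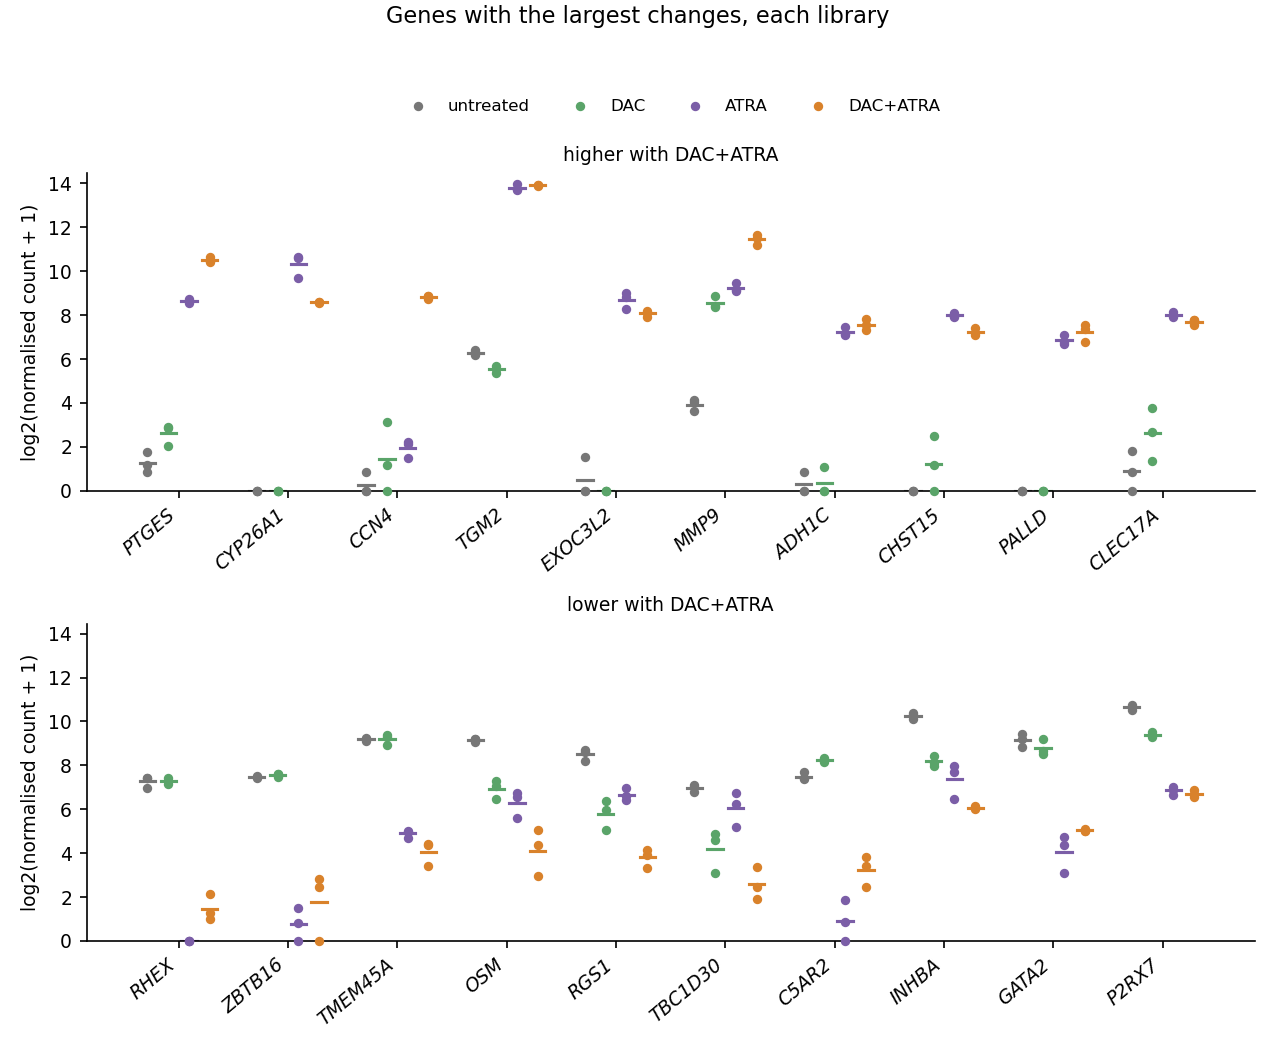
The plot shows the 10 largest rises and the 10 largest falls with DAC+ATRA among genes with a mean of 50 or more normalised counts and no overlap between DAC+ATRA and untreated libraries, each dot 1 library and each bar the mean of 3, on a scale of log2 of the normalised count plus 1. The ATRA dots lie close to the orange ones in genes such as TGM2, ADH1C and PALLD.

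Among genes of retinoid handling, 9 of 19 tested rose and 4 fell, against 14.5% and 14.4% of all tested genes. RARB, the receptor gene that is itself a retinoic acid target, had 0 reads in all untreated libraries and 99.4, 96.8 and 108 normalised counts with DAC+ATRA, at least 45.8-fold higher. HIC1, a transcriptional repressor, rose from 14.4 to 21.8 up to 1657 to 1914, and DHRS3, a retinal reductase, from 404 to 510 up to 7385 to 7897. NRIP1, a nuclear receptor corepressor, rose by 3.65 ± 0.39. The fall of ALDH1A3, a retinoic acid forming enzyme (-2.08 ± 0.51, adjusted p = 0.00297), was lost without DAC+ATRA replicate 1 (adjusted p = 0.0203), untreated replicate 1 (0.0122) or untreated replicate 2 (0.0246). RXRA, the shared partner of the receptors, fell from 819, 968 and 1081 to 546, 583 and 574 (-0.74 ± 0.16), and the retinol dehydrogenase RDH11 by 1.01 on the log2 scale. RXRA and RDH11 were the 2 members called with neither single drug.

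The RARB promoter window holds a retinoic acid response element of the kind searched for, a direct repeat of 2 half-sites (AGGTCA, or the same letters with G in place of the first A, T in place of the last G, or both) with 5 bases between them, on either strand. The windows came from RefSeq (GRCh38.p14), 250 bases before to 50 after the gene start, and 8649 of the 10641 tested genes matched one. Only 0.0694% of the matched windows held such a repeat, and 0.0347% one with 2 bases between. The 2 windows shown are those of genes that rose, with the half-sites in capitals and the 90 bases before the gene start printed 5′ to 3′. RARB is chr3:25428173-25428262 on the plus strand, and BATF2, an AP-1 family factor of interferon responses, is chr11:64990278-64990367 on the minus strand.
RARB: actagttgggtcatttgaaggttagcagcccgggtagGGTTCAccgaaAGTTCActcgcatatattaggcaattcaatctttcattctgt
BATF2: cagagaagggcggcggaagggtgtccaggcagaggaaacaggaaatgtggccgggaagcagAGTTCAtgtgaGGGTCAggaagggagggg
BATF2 rose from 0 to 1.88 up to 10.2 to 18.2 normalised counts (3.12 ± 0.69, adjusted p = 0.00121). The only other called gene with a repeat, COL24A1, has it after the gene start and fell by 1.79 on the log2 scale. Its call was lost without DAC+ATRA replicate 1 (adjusted p = 0.0154), untreated replicate 2 (0.0167) or untreated replicate 3 (0.0128).

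Genes called with DAC+ATRA and with neither single drug numbered 977, 9.18% of those tested, of which 470 (4.42%) were higher and 507 (4.76%) lower. The list rests on thresholds in 3 comparisons and its members are described without a test of the list. Most changes were small. The median log2 fold change of the 470 higher genes was 0.80 with the pair, 0.34 with DAC and 0.35 with ATRA, and that of the 507 lower genes was -0.77, -0.35 and -0.34. The change exceeded 2-fold in 150 and 153 genes. An adjusted p between 0.01 and 0.05 with at least 1 single drug was found for 465 of the 977, and requiring an unadjusted p over 0.05 with both drugs left 236, 122 higher and 114 lower. The DAC libraries, against which this list is also cut, were the shallowest (4.67 to 6.95 M reads) and had the largest replicate SD. Their part in the count was not tested. Without DAC+ATRA replicate 2 the count was 633, and fits of each pair of groups alone gave 1667.

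A call in 1 comparison and none in another does not show a difference, so the pair was also tested against each single drug. Of the 977 genes, 82 (0.771% of those tested) were called against untreated, DAC and ATRA in the same direction, 29 higher and 53 lower. DESeq2 on the recovered reads gave 44 higher and 44 lower, of which 61 genes were among the 82. Leaving out ATRA replicate 2, DAC+ATRA replicate 2 or DAC+ATRA replicate 3 left 48, 37 and 46. The interaction term, which asks whether the effect of the pair departs from the sum of the single effects on the log2 scale, was called for 4 of the 470 and 4 of the 507 genes. Its share over all tested genes is not given here, so these counts are not set against a background.

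CCN4, a secreted matricellular protein of the Wnt pathway, stood out among the higher genes. It had 0.778, 0 and 0 normalised counts in untreated cells, means of 3.04 with DAC and 2.95 with ATRA, and 465, 466 and 423 with DAC+ATRA. The fitted log2 difference of the pair was 7.38 against DAC (adjusted p = 1.4e-08) and 6.87 against ATRA (1.5e-07), and the interaction was 5.71 (adjusted p = 0.000467). Against untreated cells the fit gave 8.54 ± 0.60 (adjusted p = 1.44e-09), a value that depends on the added count since only 1 library held a read there.

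CTSL, the lysosomal cysteine protease cathepsin L (chr9:87724051-87731469, plus strand), was flat with each drug alone and rose with the pair. Its values were 51.3, 50.3 and 42.7 in untreated cells and 172, 154 and 162 with DAC+ATRA (1.74 ± 0.21, adjusted p = 1.78e-06). Its mean was 48.2 under DAC and 41.2 under ATRA, and the interaction was 1.98 (adjusted p = 0.000451). EPAS1, the hypoxia-inducible factor HIF-2alpha (chr2:46293667-46386697, plus strand), rose from 44.3, 45.5 and 37.0 to 102, 126 and 147 (1.53 ± 0.21, adjusted p = 9.63e-06), with 63.4 under DAC and 55.2 under ATRA. PRKAR1A, the type I regulatory subunit of protein kinase A, rose from 144 to 153 up to 328 to 371 (1.24 ± 0.15). LAIR1, an inhibitory receptor for collagen on leukocytes, rose from 85.9 to 114 up to 205 to 247 (1.17 ± 0.15), and SPINDOC, a binding partner of the histone reader SPIN1, from 105 to 139 up to 292 to 398 (1.36 ± 0.20).

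ASPHD2 (1.79 ± 0.17), SURF2 (1.42 ± 0.18), CNPY4 (1.15 ± 0.17) and the membrane transporter homologue MFSD3 (1.13 ± 0.15) complete the 10 largest rises of this kind at a mean of 50 or more. Genes of lower level, such as ACP5 (5.12 ± 0.69), had larger fitted rises. Of the ASPHD2 exon bases 47.1% overlap HPS4 on the opposite strand, which was listed at 46.7 and 35.6 in untreated and DAC+ATRA cells.

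The largest falls of this kind at a mean of 50 or more included a signalling kinase and a glycolytic enzyme. IRAK2, a kinase downstream of toll-like and interleukin 1 receptors, fell from 71.5, 114 and 87.2 to 22.4, 24.8 and 22.5 (-1.90 ± 0.25, adjusted p = 5.75e-06), with 60.8 under DAC and 53.2 under ATRA. LDHA, lactate dehydrogenase A (chr11:18394560-18408425, plus strand), fell from 135, 132 and 134 to 49.0, 47.3 and 26.5 (-1.74 ± 0.24, adjusted p = 9.48e-06), with 96.3 and 89.5. Reads that fit several LDHA transcripts may have been dropped, so these counts may cover only part of its RNA. PTPRH, a receptor tyrosine phosphatase, fell from 79.0 to 110 down to 22.5 to 29.6 (-1.92 ± 0.21), and ANKRD28, a subunit of protein phosphatase 6, from 117 to 176 down to 36.4 to 41.6 (-1.82 ± 0.22). In each of the 4 genes both single drugs gave means between those of the pair and of untreated cells. OPLAH, the 5-oxoprolinase of the glutathione cycle, did not: its DAC mean of 1102 was close to the untreated 958 to 1098, and with the pair it was 364 to 386 (-1.42 ± 0.20). The others were the proprotein convertase PCSK4 (-1.59 ± 0.23), ZFAND1 (-1.55 ± 0.20), TCP11L2 (-1.53 ± 0.19), the gamma-secretase activating protein GSAP (-1.39 ± 0.16) and KLHL28 (-1.35 ± 0.19).

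EMP1, an epithelial membrane protein of the tetraspan family (chr12:13196723-13219941, plus strand), was singled out after its values were seen, since its level lay under the limit set for the largest changes. It had 84.0, 119 and 88.4 normalised counts in untreated cells, means of 39.2 with DAC and 48.0 with ATRA, and 0, 1.13 and 0 with DAC+ATRA. The pair lay below DAC by 4.97 and below ATRA by 5.25 on the log2 scale (adjusted p = 6.8e-10 and 1.7e-09), sizes that depend on the added count, and the interaction was -3.97 (adjusted p = 4.18e-05). Its adjusted p against untreated cells was 2.04e-11.

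**Figure D3:**
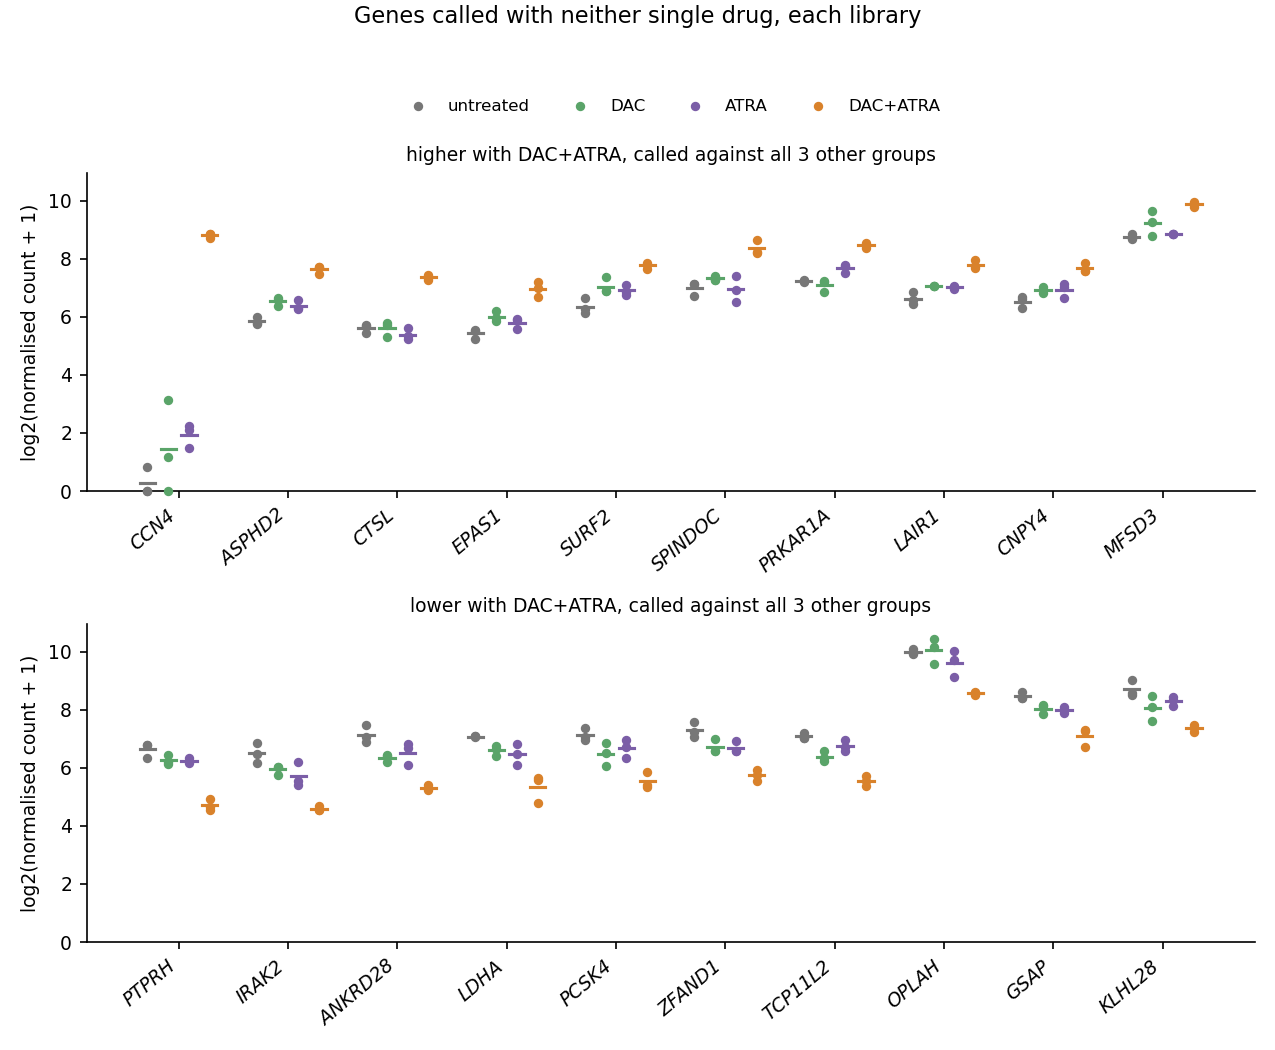
The plot shows the 10 largest rises and 10 largest falls, among genes with a mean of 50 or more normalised counts and no overlap between DAC+ATRA and untreated libraries, of the 82 genes called with DAC+ATRA against untreated, DAC and ATRA and with neither single drug against untreated, each dot 1 library and each bar the mean of 3, on a scale of log2 of the normalised count plus 1. CCN4 lies low in the 9 other libraries, with 1 DAC library above the rest of them, and near 9 in the 3 DAC+ATRA libraries, while most others move by 1 to 2 units.

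Gene lists written from general knowledge, and families defined by gene symbols, were read by the number of members called. Members named beyond the 3 with the largest changes of a list were chosen after their values were seen.

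Lysosomal genes rose as a group. Of 57 tested enzymes and membrane proteins of the lysosome, 34 rose and 1, the protease CTSF, fell, and the median log2 fold change was 0.66 against -0.004 over all genes. Of the 34, 12 were called with neither single drug, 21.1% of the list against 4.42% of all tested genes. Several lysosomal calls lay near the threshold. Over the alternative fits, GRN lost its call in 9 of 18, CTSA in 8 of 18 and ASAH1 in 7 of 18. GALNS lost it in 5 of 18 and SCARB2 in 5 of 17. The list median was 0.26 with DAC and 0.49 with ATRA. CTSD, the aspartic protease cathepsin D, rose from 21.0, 31.7 and 37.6 normalised counts to 812, 755 and 982 (4.80 ± 0.50, adjusted p = 3.11e-07). PSAP, the precursor of the saposins that help degrade sphingolipids, rose from 66.9, 86.1 and 118 to 834, 975 and 992 (3.39 ± 0.20). ACP5, the tartrate-resistant acid phosphatase of macrophages and osteoclasts, rose from 0 to 0.778 up to 43.4 to 56.2, with 1.05 under DAC and 3.83 under ATRA, and it was called against each single drug. Other annotated genes cover 22.9% of the CTSD exon bases on the same and 23.4% on the opposite strand. LAMP2 (3258 to 3554 against 4874 to 5184, 0.56 ± 0.10) is an abundant membrane protein of the 12, and TFEB, the transcription factor that acts on lysosomal genes, rose by 2.13 ± 0.25 and was also called with ATRA.

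The core of the CLEAR element that TFEB binds, TCACGTGA, was searched for in the promoter windows after the lysosomal values were seen. It reads the same on both strands and stood in 2.05% of the windows of tested genes, and in 7 of the 38 lysosomal genes with a window (18.4%). Of 22 called lysosomal genes with a window, 4 held it, LAMP1, ATP6V0D1, CTSA and GALNS, a share close to that of the 38. The other 3 with it were not called. All 4 called genes rose, as did 34 of the 35 called lysosomal genes, so their direction does not set them apart. The 90 bases before the gene start are shown for 3 of them, 5′ to 3′, with the core in capitals. LAMP1, an abundant lysosomal membrane protein, is chr13:113297149-113297238 on the plus strand, and the last 2 capitals begin another copy that runs over the gene start. ATP6V0D1, a subunit of the proton pump, is chr16:67481158-67481247 on the minus strand, and CTSA, cathepsin A, is chr20:45891245-45891334 on the plus strand.
LAMP1: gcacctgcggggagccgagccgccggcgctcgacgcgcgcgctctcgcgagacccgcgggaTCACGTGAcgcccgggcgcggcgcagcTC
ATP6V0D1: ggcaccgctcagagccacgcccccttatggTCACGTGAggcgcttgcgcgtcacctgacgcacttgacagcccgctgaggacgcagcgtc
CTSA: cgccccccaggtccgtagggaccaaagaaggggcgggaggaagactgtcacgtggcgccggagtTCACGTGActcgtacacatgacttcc
LAMP1 rose from 2258, 2780 and 2701 to 6972, 7064 and 7544 (1.48 ± 0.11) and ATP6V0D1 from 209, 240 and 218 to 829, 855 and 903 (1.95 ± 0.12), and both were also called with each single drug. CTSA rose from 22.6 to 27.6 up to 67.2 to 87.8 (1.56 ± 0.44, adjusted p = 0.00813), but without any 1 of the 6 libraries its adjusted p was 0.0176 to 0.0340. GALNS rose by 0.56 ± 0.14 (adjusted p = 0.0036) and kept its call only without DAC+ATRA replicate 1 among the 6, with adjusted p up to 0.0166 in the other 5. Cores of the sterol element (CACCCCAC, both strands) and the amino acid response element (TGATGCAA, both strands) were searched in the same way for the lists below, and stood in 2.64% and 0.451% of the windows of tested genes. They were found in 0 of 19 called cholesterol genes and 1 of 16 called amino acid stress genes, CHAC1.

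Antigen presentation rose without exception among the called members. Of 25 tested genes of MHC class I and II presentation, 19 rose and none fell, with a median of 1.79. The list median was 0.31 with DAC and 1.48 with ATRA. The lipid-presenting CD1D had 0 reads in untreated cells and 38.8 to 44.8 normalised counts with DAC+ATRA (at least 18.5-fold), and CD1C rose from 0.627 to 4.87 up to 103 to 137 (5.19 ± 0.47). Of class II, HLA-DRB5 rose from 0.812 to 3.76 up to 47.0 to 75.6 (4.32 ± 0.43), HLA-DRB1 by 4.18 ± 0.44 and CD74, the invariant chain, from 72.1 to 94.2 up to 399 to 487 (2.44 ± 0.19). The class II transactivator CIITA rose from 7.78, 13 and 16.3 to 108, 136 and 150 (3.35 ± 0.29). Of class I, HLA-B rose from 1628, 1749 and 1727 to 6266, 6905 and 6386 (1.94 ± 0.12). HLA genes are similar to each other, and how reads were split between them is uncertain. The peptidase ERAP1 (0.65 ± 0.13), NLRC5 and HLA-DQB1 were the members called with neither single drug. NLRC5 (adjusted p = 0.00253) lost its call without DAC+ATRA replicate 2 or 3 or untreated replicate 2 or 3 (0.0104 to 0.0185), and HLA-DQB1 (0.00194) without DAC+ATRA replicate 2 (0.0115) or untreated replicate 2 (0.0121).

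Interferon-linked lists held a larger share of rises than all tested genes, and a share of falls near or below that of all. Of 44 interferon-stimulated genes 10 rose (22.7%, against 14.5% of all tested genes) and 4 fell (9.09%, against 14.4%). Of 20 guanylate-binding and interferon gamma response genes 9 rose (45%) and 3 fell (15%). The list medians were 0.21 and 0.63 with the pair, -0.58 and -0.41 with DAC, and 0.09 and 0.83 with ATRA. DAC alone lowered 18 of the 44 and raised 2. LGALS3BP, a secreted scavenger receptor protein, rose from 1.62 to 7.53 up to 144 to 165 (4.92 ± 0.43), IRF1 from 114 to 139 up to 773 to 809 (2.65 ± 0.14) and the GTPase GBP4 from 24.1 to 30.9 up to 674 to 735 (4.61 ± 0.41), whose DAC mean was 2.74. IRF4 rose by 3.10 ± 0.37. OASL, an antiviral protein, fell from 35.1 to 96.6 down to 1.40 to 13.5 (-3.12 ± 0.69, adjusted p = 0.00134), a call lost without DAC+ATRA replicate 1 (0.0111) or untreated replicate 2 (0.0107). An antisense gene that covers 22.9% of the IRF1 exon bases had means of 18.5 in untreated and 237 in DAC+ATRA cells.

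Phagocyte genes changed in both directions. Of 28 Fc, complement and scavenger receptors 12 rose and 6 fell. STAB1, a scavenger receptor, rose from 4.87 to 11.3 up to 143 to 192 (4.24 ± 0.34), next to a mean of 286 with DAC and 2.22 with ATRA, and MERTK, a receptor for apoptotic cells, had 0 to 0.812 and 12.4 to 29.6. MARCO, a scavenger receptor of macrophages, had 17.1 to 22.6 and 0 to 2.25 (-3.78 ± 0.59). The lipid scavenger CD36 rose from 228 to 235 up to 887 to 977. CLEC7A, the beta-glucan receptor, fell from 11.9 to 20.3 down to 0 to 2.04, and the high-affinity Fc receptor FCGR1A fell from 1431 to 1772 down to 648 to 774 (-1.23 ± 0.13).

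Genes of the NADPH oxidase and of granules split 7 to 7 among 24. MPO, myeloperoxidase, rose from 1513, 1515 and 1511 to 9201, 10966 and 11105 (2.78 ± 0.18, adjusted p = 3.17e-10), between a DAC mean of 22033 and an ATRA mean of 805. CYBB, the catalytic oxidase subunit, rose from 888 to 1029 up to 6200 to 6524 (2.74 ± 0.12), close to the DAC mean of 5575. NCF1, a cytosolic oxidase subunit with near-identical pseudogenes that make its count uncertain, rose from 1257 to 1446 up to 5618 to 6329, under the ATRA mean of 12357. CEACAM8, a granulocyte marker, had 0 reads in untreated cells and 13.3 to 18.2 normalised counts. The serine proteases CTSG (3801 to 4808 against 596 to 721, -2.71 ± 0.15) and ELANE (23.8 to 31.9 against 2.80 to 7.88) fell, as did PRG2, the eosinophil major basic protein (993 to 1375 against 98.0 to 141, -3.22 ± 0.23). Another annotated gene on the same strand covers 42.9% of the PRG2 exon bases. In a bulk sample fewer cells of a type and less RNA per cell cannot be told apart.

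Integrin and adhesion genes rose in 12 and fell in 7 of 29. ITGA6, the laminin-binding integrin alpha 6, had 0 reads in untreated cells and 35 to 47.0 normalised counts (at least 19.1-fold). PXN, paxillin of focal adhesions, rose from 2.33 to 5.65 up to 82.7 to 99.1 (4.15 ± 0.57), and ITGB7 from 65.9 to 73.9 up to 870 to 915 (3.64 ± 0.16). PXN-AS1 on the opposite strand overlaps 23.7% of the PXN exon bases and had means of 68.2 and 101. ZNF740 on the opposite strand overlaps 42.3% of the ITGB7 exon bases and was listed at 1191 in untreated and 931 in DAC+ATRA cells. ITGAM, the myeloid marker CD11b, rose from 5.65 to 13 up to 39.2 to 55.1 (2.21 ± 0.32). Among 36 inhibitory and activating surface receptors 11 rose and 10 fell. CLEC10A, a galactose lectin of macrophages and dendritic cells, rose from 1.62 to 4.39 up to 243 to 315 (6.28 ± 0.45), while CLEC5A had 15.7 to 26.0 and CLEC12B 10.7 to 26.8 in untreated cells and neither had a read with DAC+ATRA, at least 5.60-fold and 4.84-fold lower. CD33, the target of gemtuzumab, rose from 303 to 460 up to 630 to 771 (0.88 ± 0.17) and was called with neither single drug.

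Stem and leukemia genes fell more often than they rose, 9 against 4 of 28. HOXA9, a driver of MLL-rearranged leukemia, fell from 1538, 1550 and 1497 to 640, 549 and 611 (-1.35 ± 0.12, adjusted p = 5.55e-08), and the pair was also called below DAC and below ATRA. FLT3, the receptor kinase, fell from 13871 to 14247 down to 7130 to 7681 (-0.94 ± 0.11), and MYC from 90.3 to 102 down to 31.5 to 36.4 (-1.48 ± 0.23). KIT, the stem cell factor receptor, rose from 24.9 to 37.3 up to 164 to 277 (2.95 ± 0.34) and SOX4 from 565 to 596 up to 2676 to 2892 (2.26 ± 0.10).

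Cholesterol and fatty acid synthesis fell as a group, with 26 of 38 tested genes lower, none higher, and a median of -1.39. The list median was -0.53 with DAC and -1.21 with ATRA. FADS1, a fatty acid desaturase, fell from 2069, 2079 and 2049 to 174, 120 and 150 (-3.81 ± 0.15), FDPS, which makes farnesyl diphosphate, from 154 to 197 down to 5.60 to 20.4 (-3.77 ± 0.34), and CYP51A1, a sterol demethylase, from 4615 to 4659 down to 309 to 406 (-3.72 ± 0.15). Other annotated genes cover 68.2% of the CYP51A1 exon bases on the same strand and 18.6% of those of FDPS on the opposite one. SCD, stearoyl-CoA desaturase, fell from 28337, 30311 and 31700 to 3025, 3018 and 2882 (-3.34 ± 0.12), with 15484 under DAC and 13015 under ATRA, and its interaction was -1.15 (adjusted p = 0.000451). SREBF1, the transcription factor SREBP1, fell from 189 to 219 down to 109 to 129 (-0.78 ± 0.17), with 195 under DAC and 214 under ATRA, and was called against each single drug as well. The other member called with neither single drug was NSDHL (-1.05 ± 0.26, adjusted p = 0.00334), whose call was lost without DAC+ATRA replicate 1 (0.0151), DAC+ATRA replicate 2 (0.0118), untreated replicate 1 (0.0103) or untreated replicate 2 (0.0316).

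ATF4 and amino acid stress genes fell in 20 of 33 and rose in 1, with a median of -0.93. The list median was -0.39 with DAC and -1.07 with ATRA, and ATRA alone lowered 23 of the 33. TRIB3, a pseudokinase, fell from 2538, 2680 and 2616 to 214, 183 and 201 (-3.71 ± 0.12), STC2, a secreted glycoprotein, from 111 to 132 down to 1.40 to 15.8 (-3.92 ± 0.49) and CHAC1, a glutathione-degrading enzyme, from 55.8 to 80.9 down to 7.0 to 10.1 (-2.98 ± 0.34). PSAT1, of serine synthesis, fell by 1.95 on the log2 scale. The cystine transporter SLC7A11 fell from 1630 to 2001 down to 1052 to 1126 (-0.71 ± 0.13) and was called with neither single drug, as was ATF3 (-2.05 ± 0.47, adjusted p = 0.00179), which lost its call without DAC+ATRA replicate 2 (0.0104) or untreated replicate 2 (0.0192). The 1 that rose was CEBPB, a transcription factor of macrophages (438 to 489 against 956 to 986).

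Glycolytic genes split, 10 higher and 12 lower of 35, with a median of -0.02. The list median was -0.09 with DAC and -0.04 with ATRA, and DAC alone raised 6 and lowered 11 of the 35. The fructose transporter SLC2A5 rose from 1419 to 1577 up to 30705 to 31320 (4.37 ± 0.10), and PFKFB4, a regulator of fructose bisphosphate, fell from 1319 to 1434 down to 104 to 143 (-3.46 ± 0.25). TKTL1, a transketolase homologue, had 0 reads in untreated cells and 1.13 to 20.4 normalised counts, and its call (adjusted p = 0.0024) was lost without DAC+ATRA replicate 1 (0.0147) or 3 (0.0250). The enzymes named next were all picked from the 12 lower members, so they do not stand for the list. Among them, GAPDH fell from 4455, 5176 and 5290 to 1832, 1959 and 1708 (-1.44 ± 0.13), ENO1 by 1.22 and PGK1 by 1.17 on the log2 scale. HK2, a hexokinase called with neither single drug, fell from 162 to 186 down to 86.8 to 94.6 (-0.92 ± 0.21).

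Histone genes fell in 44 of 70 and rose in 1, H2BU1, with a median of -0.81. The histone median was -0.20 with DAC and -0.80 with ATRA. H1-3 fell from 4556, 4441 and 4570 to 1463, 1024 and 1069 (-1.95 ± 0.14), H4C4 from 7104 to 7438 down to 2019 to 2548 (-1.70 ± 0.12), and H3C8 from 6.49 to 13.2 down to 0 to 1.02. Histone copies are near identical and the count of a single copy is uncertain. Mitosis genes fell in 27 of 56 and rose in none, with a median of -0.72, and DNA replication genes fell in 7 of 56 (12.5%, under the background of 14.4%). The list medians were 0.15 and 0.26 with DAC and -1.06 and -0.77 with ATRA. BIRC5, survivin, fell by 1.55 ± 0.30 on the log2 scale, AURKA, the mitotic kinase Aurora A, by 1.55 ± 0.25 and MKI67, the proliferation marker, from 214, 321 and 369 to 139, 147 and 110 (-1.16 ± 0.18). The fall of BUB1B, a spindle checkpoint kinase (-1.38 ± 0.31, adjusted p = 0.00155), was lost without DAC+ATRA replicate 3 (0.0139) or untreated replicate 1 (0.0119).

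Of 31 p53 target genes 14 rose and 4 fell. The list median was 0.29 with the pair, 0.59 with DAC and -0.03 with ATRA, and DAC alone raised 12 of the 31. TP53I3, an oxidoreductase, rose from 1.56, 4.87 and 2.51 to 199, 249 and 231 (5.92 ± 0.32), with 31.0 under DAC and 26.0 under ATRA. TIGAR, a phosphatase of fructose bisphosphate, rose from 27.2 to 31.4 up to 127 to 168 (2.29 ± 0.21), and ZMAT3, an RNA-binding protein, from 285 to 316 up to 890 to 974 (1.65 ± 0.12). Another gene on the same strand covers 18.1% of the TIGAR exon bases. TP53I3 and TIGAR were called above DAC, and TP53I3 above ATRA. The apoptosis gene BAX rose by 1.16 ± 0.14 and MDM2, which degrades p53, by 0.56 ± 0.12, with a DAC mean of 4749 above the 3647 to 4062 of the pair.

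Chemokines and cytokines fell in 12 and rose in 7 of 34. CCL2, the monocyte chemokine, rose from 344 to 541 up to 5315 to 6337 (3.72 ± 0.14), under the ATRA mean of 26074. IL1RN, the interleukin 1 receptor antagonist, fell from 35 to 46.3 down to 0 to 7.88 (-4.03 ± 0.57), and VEGFA from 15.7 to 21.9 down to 2.25 to 5.11 (-2.17 ± 0.39), the latter with 15.6 under DAC, 14.5 under ATRA and a call against each of them. Of 38 MAPK and FLT3 output genes 8 rose and 12 fell. The phosphatase DUSP4 rose from 0.812 to 1.88 up to 109 to 119, with 135 under ATRA, DUSP6 from 270 to 343 up to 1128 to 1173 (1.91 ± 0.14), and DUSP3 fell from 3364 to 3453 down to 689 to 840 (-2.16 ± 0.12). An unnamed gene on the opposite strand covers 28.6% of the DUSP6 exon bases.

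In 3 further families a larger share than over all genes was called with neither single drug. Of 41 proteasome subunits and activators 9 rose and 3 fell, and 6 of the 9 (14.6% of the family, against 4.42%) were of this kind. These 6 were PSMA4, PSMA5, PSMB2, PSMB4, PSMC4 and PSMD4. PSMA5 rose from 701, 713 and 705 to 1418, 1160 and 1128 (0.80 ± 0.13) and PSMB4 from 3289 to 3540 up to 4480 to 5032 (0.45 ± 0.09). The changes of the other 4 were 0.45 to 0.98, and each was lost in at least 2 of the fits without 1 library, with adjusted p from 0.0120 to 0.0418. Of those called also with a single drug, the immunoproteasome members PSME2 (1.30 ± 0.20) and PSMB10 (1.15 ± 0.13) rose and PSMD10 (-1.13 ± 0.21) fell. An unnamed gene on the same strand covers 39.4% of the PSMB10 exon bases.

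Of 87 oxidative phosphorylation subunits 15 rose and 5 fell, 8 and 4 of them with neither single drug. These were 9.20% and 4.60% of the family, against 4.42% and 4.76% of all tested genes, so only the higher side exceeded the background. Over all calls the family was below it, with 23.0% called against 28.9%. ATP5F1A, called with neither single drug, lost its call in 5 of 18 alternative fits. UQCR11 of complex III rose from 540 to 617 up to 1164 to 1183 (1.00 ± 0.15), and NDUFS8 (1.29 ± 0.15), NDUFB7 (1.10 ± 0.13) and NDUFB1 (1.07 ± 0.20) of complex I had the largest rises. Of 61 ribosome biogenesis genes 6 rose, all 6 with neither single drug (9.84%), and 5 fell, so that over all calls the list was below the background, with 18.0% called against 28.9%. GNL3L, a nucleolar GTPase, rose from 721 to 785 up to 1177 to 1314 (0.74 ± 0.12), while the nucleolar proteins NPM1 (-0.97 ± 0.16) and FBL (-0.78 ± 0.15) fell.

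Cytosolic ribosomal proteins had such a share on the lower side. Of 81 tested 30 fell and 1 rose, and 12 of the 30 were called with neither single drug (14.8% of the family, against 4.76% of all tested genes), with a family median of -0.37. The family median was -0.27 with DAC and -0.29 with ATRA. RPL12 and RPL37A, both also called with DAC, had falls over 2-fold. RPL12 fell from 18155 to 21522 down to 8969 to 10343 (-1.07 ± 0.12) and RPL37A from 7574 to 8833 down to 3263 to 4244 (-1.14 ± 0.14). RPL39L (-1.14 ± 0.28, adjusted p = 0.0029) lost its call without DAC+ATRA replicate 3 (0.0154) or untreated replicate 1 (0.0133) or 2 (0.0131). RPS24 was the 1 that rose (77.9 to 117 against 169 to 203), and it was lost without DAC+ATRA replicate 1 (0.0106) or 3 (0.0131) or untreated replicate 1 (0.0104) or 2 (0.0168). Ribosomal protein genes have many processed pseudogenes, and reads that fit several transcripts of a gene may have been dropped, so their counts are uncertain. The low level of RPS24 next to RPL12 may reflect only part of its reads, which was not tested. Other families were near or below the background. Of 365 ZNF zinc finger genes 23 rose and 31 fell, of 30 Mediator subunits none rose and 2 fell, and of 63 spliceosome genes 2 rose and 7 fell.

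**Figure D4:**
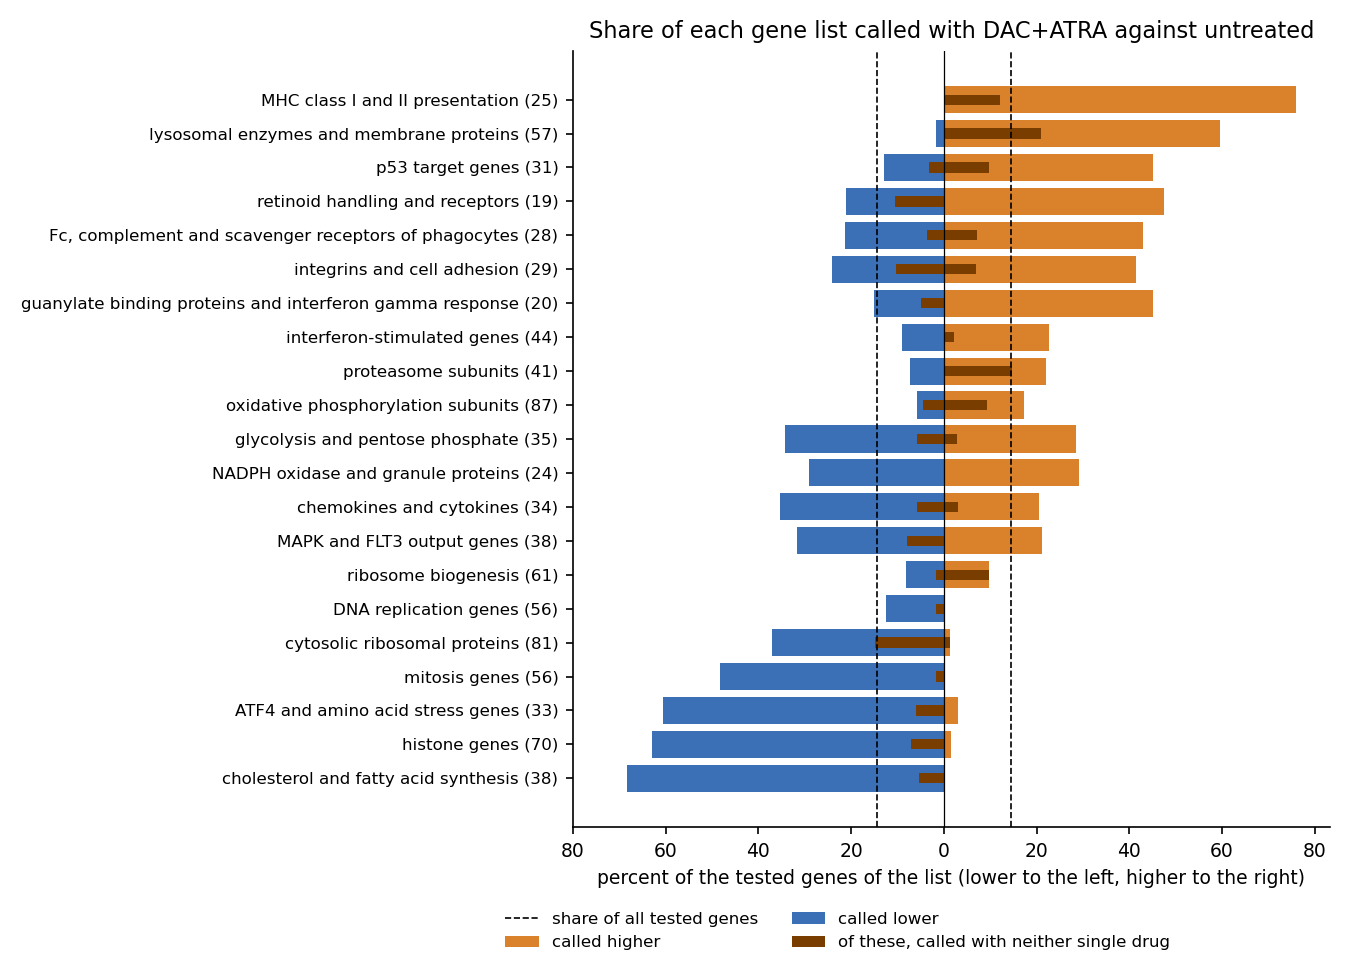
Bars show the percent of the tested genes of each list that were called higher (orange, to the right) or lower (blue, to the left) with DAC+ATRA against untreated, with the number tested in parentheses, and dark inner bars the part called with neither single drug. The dashed lines mark the shares over all tested genes, 14.5% and 14.4%, which MHC and lysosomal genes exceed on the higher side and cholesterol, histone, ATF4 and mitosis genes on the lower side.

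CG dinucleotides, the sites of DNA methylation, were counted in the promoter windows, and windows with few of them were more frequent among the most changed genes. The median window of all tested genes held 26, and 6.89% of windows were CG-poor, with 5 or fewer. Of 128 genes with a window that rose over 8-fold 40 were CG-poor (31.2%), and of 73 that fell over 8-fold 16 were (21.9%). Among all called genes the shares were 11.2% for those that rose and 8.03% for those that fell. Genes called with neither single drug had shares of 5.04% (higher) and 6.33% (lower), close to the 5.81% of genes that were not called, and genes that rose with DAC+ATRA and with ATRA alone had 15.2%. These are descriptions of the windows, with no measurement of methylation, and the large folds fell on genes of low level. The 150 bases before the gene start of a CG-poor and a CG-rich riser are shown 5′ to 3′ with each CG in capitals. LGALS3BP is chr17:78979924-78980073 on the minus strand, with 4 CG in its window, and CTSD is chr11:1763928-1764077 on the minus strand, with 43.
LGALS3BP: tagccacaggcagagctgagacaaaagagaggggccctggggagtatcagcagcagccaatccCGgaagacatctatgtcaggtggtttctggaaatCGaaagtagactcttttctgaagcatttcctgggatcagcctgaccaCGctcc
CTSD: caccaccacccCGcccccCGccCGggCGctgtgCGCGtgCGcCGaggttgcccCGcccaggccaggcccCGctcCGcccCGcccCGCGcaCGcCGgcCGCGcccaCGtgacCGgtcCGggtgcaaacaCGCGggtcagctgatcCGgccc
The fold change of LGALS3BP was 4.92 ± 0.43 and that of CTSD 4.80 ± 0.50 on the log2 scale.

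**Figure D5:**
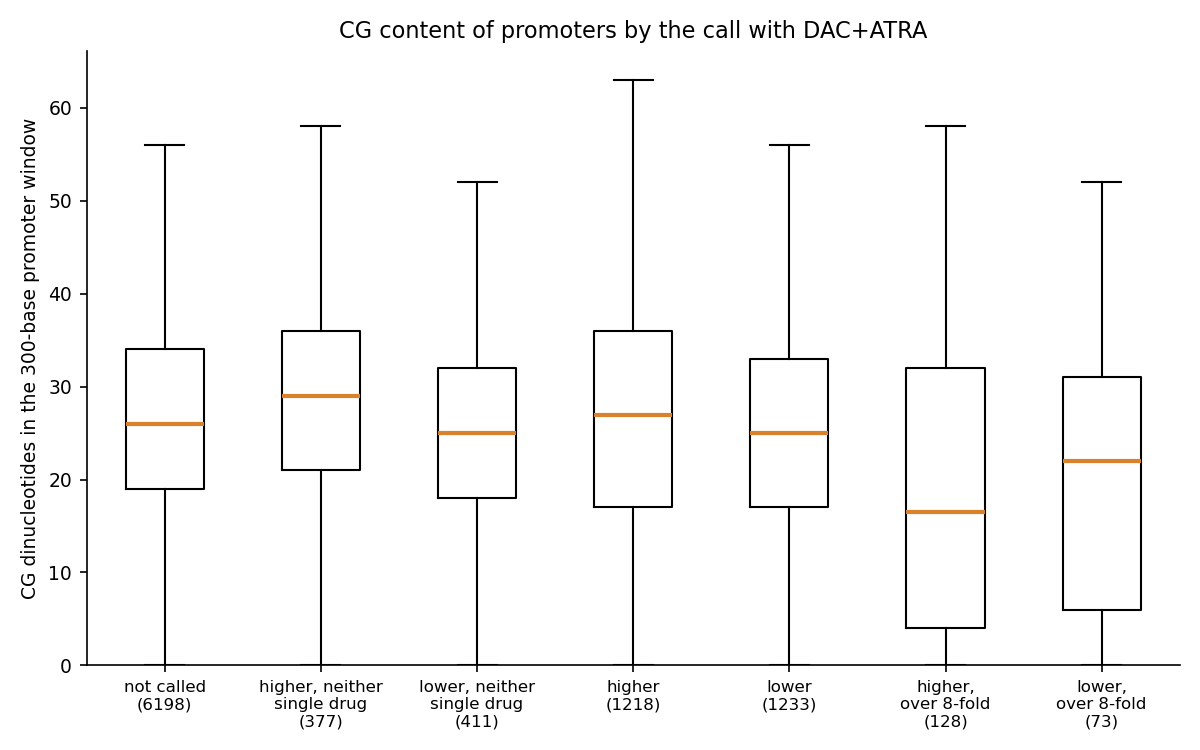
Boxes show the number of CG dinucleotides in the 300-base promoter window by the call with DAC+ATRA, with the median in orange, the quartiles as the box, whiskers to the furthest value within 1.5 box lengths and the number of genes in parentheses. The lower quartile reaches 4 for genes more than 8-fold higher, against 19 for genes that were not called.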

How the data were processed

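RNA of 12 MOLM-13 samples (4 groups of 3) was rRNA-depleted and sequenced as stranded paired-end libraries, at about 40 M reads each per the labels. The authors used FastQC, STAR (hg38), HTSeq and DESeq2; versions, annotation and counting options are not given in the sources used here. The deposited table holds counts per transcript row divided by DESeq2 size factors, a signal from which whole reads were recovered (tolerance 0.01). HTSeq by default drops reads that fit several features, so a gene with many transcripts can be low, and the recovered totals of 4.67 to 11.9 M reads limit the precision of low genes; p-values, intervals and floors of 3 reads per library cover counting and replicate error only. Rows were summed per gene symbol, and 88.9% of 100502 rows matched GENCODE 44. No column was left unmapped (0).

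limma 3.58.1 (R 4.3.3; lmFit, eBayes with trend) was run on log2(normalised count + 1) over all 12 libraries, with 1 coefficient per group and no covariate. Fold changes are on that scale, which understates changes of low genes. The test was checked on simulated data. Alternatives used edgeR 4.0.16, DESeq2 1.42.0 and other scalings, filters, pseudocounts and library sets.

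Named genes were the 10 largest called changes in each direction with a mean of 50 or more and no overlap between groups, the same among genes called against each single drug, and the 3 largest of each list. Gene lists and these choices were made with earlier results of these data known. Promoter windows, 250 bases before to 50 after the start, came from RefSeq (GRCh38.p14). Some genes and lists are not reported here.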

Additional observations from a re-analysis of the deposited data

Results flagged for a closer look

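A test of the interaction asked whether the effect of ATRA differed between cells with and without DAC, in the same fit over 12 libraries (limma, Benjamini-Hochberg). It was called for 19 of the 295 genes named, and the values are log2 differences of the 2 effects. The genes named were mostly chosen for large changes with DAC+ATRA, so this count is no measure of the share over all tested genes, which is not given here. The effect of DAC alone enters these differences, so they do not rank the level with the pair against that with ATRA. The ATRA effect was larger upward with DAC for CCN4 (5.71), THBS1 (2.55), CTSL (1.98), DHRS3 (1.68) and TGM2 (0.87). For DHRS3 the pair lay 3.98 to 4.15 above untreated cells over the alternative fits, against 4.27 with ATRA alone in the main fit. For TGM2 these values were 7.56 to 7.69 and 7.51. The ATRA effect was smaller upward with DAC for CYSLTR2 (-2.63), MMP9 (-2.39), CCL2 (-2.37), COL1A1 (-2.04), ABCA1 (-1.74), ITGB7 (-1.48) and NCF1 (-1.05). MMP9 still lay higher with the pair, at 7.21 to 7.68 over the alternative fits, against 5.31 with ATRA alone in the main fit. The fall with ATRA was deeper with DAC for EMP1 (-3.97) and SCD (-1.15), and shallower for TRIB3 (1.63), RGS18 (1.26), P2RX7 (1.09) and CDT1 (1.03). Against untreated cells TRIB3 still fell as far with the pair (-3.76 to -3.65 over the alternative fits) as with ATRA alone (-3.68 in the main fit). For P2RX7 these values were -4.03 to -3.87 and -3.79. RGS16 fell with ATRA alone by 0.97 and was higher with the pair than with DAC alone by 0.91, an interaction of 1.88. The adjusted p-values ran from 1.94e-06 for CCL2 to 0.0086 for COL1A1.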

How the results depend on the processing

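The count of 3077 genes stayed within 1.5 times under the other tools, scalings, pseudocounts and filters, with 1160 when only genes with 1 transcript row were tested and 1547 over 2-fold. Without 1 of the 6 libraries it was 2362 to 2607. The 977 genes called with neither single drug became 296 with 1 transcript row, 1667 when only the compared groups were fitted, 303 over 2-fold and 236 with unadjusted p over 0.05 for each single drug, and 633 to 1175 without 1 of the 12 libraries. The 82 called against each single drug became 42, 46 with only the compared groups, 131 at adjusted p under 0.05, and 37 to 97 without 1 library. The share of CG-poor windows among genes over 8-fold higher was 26.9% to 33.9% over all alternatives.

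The labels number replicates 1 to 3 in each group, but same-numbered untreated and DAC+ATRA libraries shared little deviation (correlations 0.0518, 0.0114 and 0.0392), so the numbers were not taken as pairs. With the replicate block the counts were 2832, 908 and 65.

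None of the 295 genes examined one by one changed direction, and 248 kept their call under every alternative. The list medians moved by more than their SD between replicates in 159 of 1329 cases. The cause of these changes was not tested, beyond fewer genes or libraries entering a fit. Depth, lowest in the DAC and DAC+ATRA libraries, limits what low genes can show.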

Other observations

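A set of genes of ciliary transport and the ciliary transition zone, put together after the values were seen, is given as counts only. Of 34 tested genes of the intraflagellar transport, BBS, tectonic and nephrocystin groups 10 were called lower with DAC+ATRA (29.4%, against 14.4% of all tested genes) and none higher, and 7 of the 10 were called with neither single drug (20.6%, against 4.76%). The set was chosen for this pattern, so these shares support nothing. Among the 7 were TCTN2, LZTFL1, BBS7, WDR19, TTC30A and TTC30B. The median log2 fold change of the 34 was -0.45 with the pair, -0.35 with DAC and -0.22 with ATRA.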
